A study of Caenorhabditis elegans with 2 samples.

Results

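The cuticle collagen genes of Caenorhabditis elegans were examined in a ChIP-seq experiment on the GATA-type zinc finger protein ELT-4. A gene was included if its symbol is col- followed by a number (156 genes) or if it is dpy-2, dpy-3, dpy-7, dpy-8, dpy-9, dpy-10, dpy-13, dpy-17, rol-6, sqt-3, bli-1 or bli-2. This gave 168 of the 19973 protein-coding genes annotated on the nuclear chromosomes. The embryos came from strain OP111, genotype unc-119(ed3) III; wgIs111, which carries an integrated transgene for ELT-4 with GFP and FLAG joined to its C terminus. Hermaphrodite late embryos were taken 3 hours after bleaching of eggs, and sonicated chromatin was precipitated with an anti-GFP antibody, although another label field gives elt-4 as the antibody. There was 1 group with 2 biological replicates and no untagged strain or other condition was analysed here. Whole animals were used, so a signal cannot be assigned to a tissue or cell type, and the tagged transgene adds to the native elt-4 in every sample.

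Cuticle collagens are small secreted proteins that the epidermis makes in bursts, once for each cuticle, and that are cross-linked outside the cell into the layers, furrows and ridges of the exoskeleton. Each chain carries interrupted runs of Gly-X-Y triplets, in which X and Y are often proline or hydroxyproline, and the chains wind around each other to form a collagen helix. Mutants of single genes have short and fat (Dpy), rolling (Rol), squat (Sqt) or blistered (Bli) bodies, and many other family members are known by number only. ELT-4 is related to ELT-2, the GATA factor of the intestine, and GATA factors in this animal recognise sites such as TGATAA.

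The sequences under the strongest collagen summits were stretches of Gly-X-Y code. Shown are the summit and the 100 bases on each side of it in the 3 collagen genes of highest signal and in 2 collagen genes with a named mutant phenotype, so that bases of strong and weaker regions can be set side by side. They were read from the RefSeq genome WBcel235, the same assembly as ce11, and are written 5′ to 3′ in the sense of the gene. Capitals mark the in-frame glycine codons (GGN). The windows are IV:9563848-9564048 (plus strand) for col-122, III:8262704-8262904 (minus strand) for col-91, IV:1769214-1769414 (plus strand) for col-108, II:8733727-8733927 (plus strand) for rol-6 and X:7536897-7537097 (minus strand) for dpy-7. All 5 lay wholly in coding sequence.
col-122: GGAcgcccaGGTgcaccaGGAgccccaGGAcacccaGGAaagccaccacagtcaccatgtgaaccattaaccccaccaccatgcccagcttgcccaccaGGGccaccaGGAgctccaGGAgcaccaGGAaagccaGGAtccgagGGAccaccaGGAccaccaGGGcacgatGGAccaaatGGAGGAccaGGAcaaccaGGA
col-91: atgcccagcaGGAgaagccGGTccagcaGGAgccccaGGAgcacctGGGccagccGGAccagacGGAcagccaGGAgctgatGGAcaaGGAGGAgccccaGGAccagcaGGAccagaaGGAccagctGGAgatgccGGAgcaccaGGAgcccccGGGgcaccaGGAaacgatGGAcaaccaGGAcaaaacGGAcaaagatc
col-108: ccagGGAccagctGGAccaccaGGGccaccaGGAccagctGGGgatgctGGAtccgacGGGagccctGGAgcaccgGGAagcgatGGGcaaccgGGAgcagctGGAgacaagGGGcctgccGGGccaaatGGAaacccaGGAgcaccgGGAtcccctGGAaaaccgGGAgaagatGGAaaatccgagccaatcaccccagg
rol-6: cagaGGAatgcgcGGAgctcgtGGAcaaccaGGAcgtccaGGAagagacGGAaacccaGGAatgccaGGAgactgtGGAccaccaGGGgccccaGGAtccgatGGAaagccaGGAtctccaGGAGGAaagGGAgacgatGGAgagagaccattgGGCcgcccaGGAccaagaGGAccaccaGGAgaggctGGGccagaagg
dpy-7: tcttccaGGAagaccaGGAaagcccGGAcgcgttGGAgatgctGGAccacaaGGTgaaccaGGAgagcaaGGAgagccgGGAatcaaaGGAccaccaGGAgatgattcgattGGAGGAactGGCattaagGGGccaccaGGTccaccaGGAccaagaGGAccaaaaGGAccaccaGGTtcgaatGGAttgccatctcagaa

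Glycine and proline codons filled much of each window. In col-122, 18 of 67 whole codons encoded glycine and 26 encoded proline. In col-91 there were 22 glycine and 15 proline codons among 66, and in col-108 there were 20 and 17. The windows of the weaker regions were built alike, with 22 glycine and 15 proline codons among 66 in rol-6, and 21 and 17 among 66 in dpy-7. Over all coding windows in collagen genes, 26.9% of codons encoded glycine and 20.9% proline, against 6.36% and 6.14% in coding windows of other genes. This composition follows from the repeats that the genes encode, and it describes where in the genes the summits lay.

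Most collagen genes held a called region, and 34 of them held a peak of the authors' strictest list. The deposited pooled list, made from the replicates together, held 30000 regions, and a filter on the irreproducible discovery rate (IDR) left 342, which here are exactly those of highest signal. They are called IDR peaks. A region was assigned to a gene if its summit lay in the gene body or up to 1000 bp upstream. By this rule 151 of the 168 collagen genes (89.9%, exact Clopper-Pearson 95% interval 84.3 to 94.0) had a pooled region, against 11825 of the 19805 other protein-coding genes (59.7%). An IDR peak was present at 34 collagen genes (20.2%, 95% interval 14.4 to 27.1), against 296 other genes (1.49%, 95% interval 1.33 to 1.67). Over all protein-coding genes the share with an IDR peak was 1.65%. A pooled region with a deposited q-value of at most 0.05 was present at 76 collagen genes (45.2%), against 5.33% of other genes and 5.67% of all genes. The intervals cover the counting of genes only, since all genes were read in the same 2 replicates. Genes with an IDR peak were found on every chromosome, among them 11 of 43 collagen genes on IV, 6 of 32 on V, 6 of 29 on II, 3 of 13 on III and 4 of 30 on X.

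The collagen genes are shorter than most, and they held more regions per unit of sequence. Their median length was 1226 bp, against 2027 bp for all protein-coding genes. The windows of the collagen genes covered 0.411 Mb and held 275 regions, or 669 per Mb, and 80.3 IDR peaks per Mb. The windows of all protein-coding genes covered 75.2 Mb, with 323 regions and 3.91 IDR peaks per Mb. Of the 275 regions, 33 were IDR peaks (12%, 95% interval 8.41 to 16.4), against 1.14% of all pooled regions. These 33 made up 9.65% of the IDR list. There were 34 genes for 33 peaks because col-46 and col-47, which lie on opposite strands, share 1 peak. In all, 12 regions lay in the windows of 2 collagen genes.

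Signal is the authors' own value for each region, as written by their peak caller on an unstated scale, and it serves here to rank and describe regions. Sequencing depth is unknown and the control library was not analysed here. The pooled signal of the collagen regions had a median of 45.5 (range 21.3 to 123), against 30.5 for all pooled regions (21.3 to 346). Both replicates showed this offset. Taking for each pooled region the strongest overlapping region of a replicate, the median signal in replicate 1 was 29.5 for collagen regions and 18.95 for all pooled regions, and in replicate 2 it was 34.5 for collagen regions and 21.1 for all pooled regions. Over the regions of the replicate lists themselves, assigned to genes in the same way, the medians were 23.9 for collagen regions and 16.4 for the whole list in replicate 1, and 26.7 and 18.3 in replicate 2. Both replicate lists held a matching region for 243 of the 275 collagen regions (88.4%), against 55.9% of all regions. The strongest region of each gene had a median of 62.3, with quartiles of 45.6 and 76.6.

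**Figure D1:**
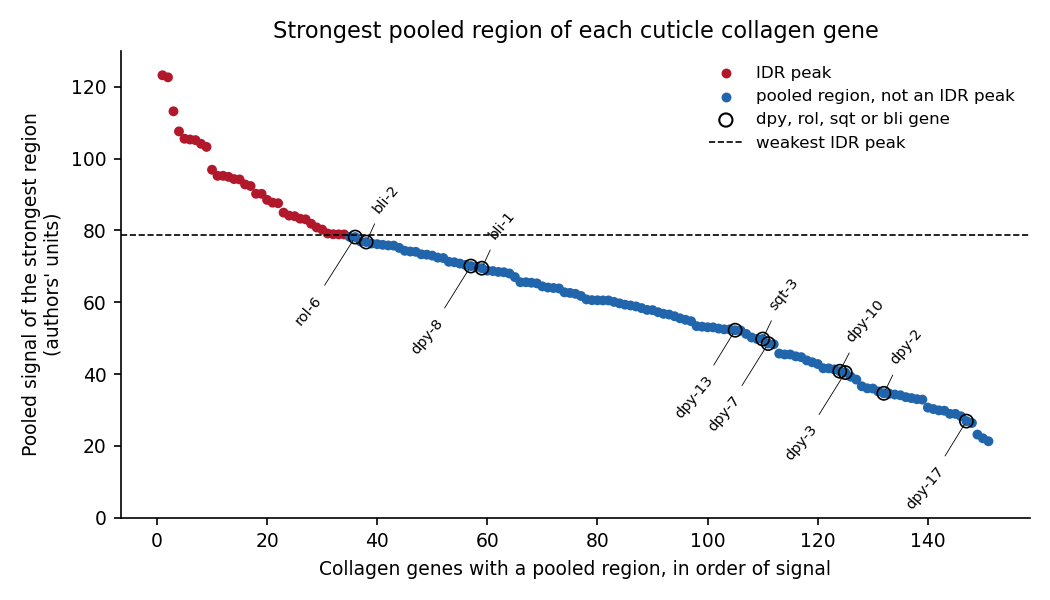
Pooled signal (authors' units, vertical axis) of the strongest region of each of the 151 collagen genes that had one, in falling order (horizontal axis); red points are IDR peaks, blue points other regions, and circles the dpy, rol, sqt and bli genes. Signals fall in an unbroken series from 123 to 21.3, and every circled gene lies under the dashed line at the weakest IDR peak, 78.7.

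The 12 collagen genes of highest signal in the gene body were all col- genes known mainly by number. The region of col-122 (IV:9563713-9564182) ranked 20 of all pooled regions at a signal of 123, with 45.6 in replicate 1 and 71.8 in replicate 2 (58.7 ± 18.5, mean ± SD, n = 2). That of col-91 (III:8262569-8263038) ranked 22 at 123, with 51.0 in replicate 1 and 66.2 in replicate 2. Both genes had a higher signal in replicate 2, as did col-163, col-120, col-20, col-61, col-43 and the pair col-46 and col-47. Signals were not rescaled between the lists. By rank, col-20 (66 in replicate 1, 99 in replicate 2) and the pair (130 and 205) stood higher in replicate 1. The region of col-108 (IV:1769079-1769548) ranked 31 at 113. Its signals in the replicates were nearly level, at 58.0 and 54.6, with ranks of 30 and 103. For col-97 (III:12993047-12993516), of rank 40 at 108, replicate 1 gave 66.5, the highest of any collagen IDR peak in that list, and replicate 2 gave 42.3. The other 8 had pooled signals of 95.2 to 106 and ranks of 45 to 100. They were col-163 (V:20600639-20601108), col-120 (IV:9260776-9261245), col-20 (II:4869906-4870375), col-61, col-80 (II:10707430-10707899), col-43 (V:8050006-8050475), col-46 and col-47. Among these 8, the widest gap in signal between replicates was that of col-120, at 42.9 in replicate 1 and 66.0 in replicate 2.

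Ranks in the replicates separated some of the other IDR peaks. The region of col-139 (V:4653201-4653670) was matched by 24.2 in replicate 1, rank 4571, and 62.7 in replicate 2, rank 37. The replicate 1 summit lay 249 bp from the pooled summit, and another pooled summit lay 266 bp away. The value of 24.2 is thus that of an overlapping region with its summit elsewhere. For col-2 (IV:10084711-10085180) the values were 25.2 and 53.9, with ranks of 3935 and 114, and for col-129 (IV:12109008-12109477) they were 30.3 and 53.9, with ranks of 1751 and 115. The reverse was seen at col-72, whose region ranked 123 in replicate 1 and 5012 in replicate 2. Each of these 4 was among the 342 strongest regions of 1 replicate only. The genes col-139 and col-129 were named after their values were seen. Over the 33 collagen IDR peaks the signal ran from 24.2 to 66.5 in replicate 1 (median 47.2) and from 26.1 to 71.8 in replicate 2 (median 46.7), where the whole lists had medians of 16.4 and 18.3.

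Taken each alone, the replicates also had many collagen genes among their strongest regions. Of the 342 regions of highest signal in replicate 1, the weakest of which had 40.7, some lay in the windows of 35 collagen genes (20.8%), against 1.73% of all protein-coding genes. For replicate 2, where the weakest had 45.1, it was 29 collagen genes (17.3%), against 1.72% of all genes. The lists named partly the same genes: 16 collagen genes had such a region in both replicates, against 105 of all 19973 protein-coding genes. In at least 1 replicate it was 48 collagen genes, for which no all-gene count is given. Of the 33 collagen IDR peaks, 13 overlapped the strongest regions of both replicates (39.4%, 95% interval 22.9 to 57.9), 12 those of replicate 1 only, 7 those of replicate 2 only and 1 those of neither. Among the other 309 IDR peaks, 85 overlapped both (27.5%, 95% interval 22.6 to 32.8) and 41 neither (13.3%). Pooled and replicate summits mostly lay close together, at a median distance of 25 bp in replicate 1 and 15 bp in replicate 2. The largest distances were 249 bp and 230 bp. Across the 139 collagen genes whose strongest region was in both lists, Spearman's rho of the replicate signals was 0.37, and it was 0.31 across the 16769 pooled regions found in both, given as descriptions over regions that share the same 2 libraries.

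**Figure D2:**
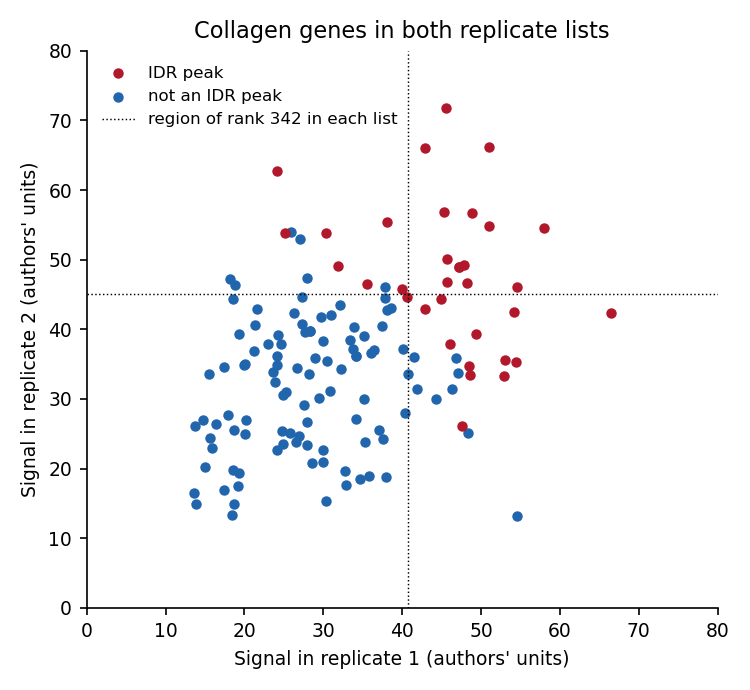
Signal in replicate 1 (horizontal axis) against signal in replicate 2 (vertical axis), both in authors' units, of the strongest region of each of the 139 collagen genes found in both lists; red points are IDR peaks and blue points other regions. Dotted lines mark the region of rank 342 in each list, 40.7 and 45.1. IDR peaks lie beyond both lines or beyond 1 of them with few exceptions. The point of col-139 stands out at 24.2 and 62.7, and its replicate 1 summit lay 249 bp from the pooled summit.

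None of the 12 genes with a named mutant phenotype had an IDR peak, although 11 had a region and 4 passed a q-value of 0.05. Over all protein-coding genes 1.65% had an IDR peak and 5.67% passed that q-value, and over the 168 collagen genes 20.2% and 45.2%. With only 12 genes, the absence of an IDR peak cannot be read as a trait of this group. The roller gene rol-6, which encodes a collagen of the body cuticle, had a region at II:8733592-8734061 with a pooled signal of 78.1 (rank 357), and values of 40.1 in replicate 1 and 37.1 in replicate 2. This was just under the signal of the weakest IDR peak, 78.7. The strut collagen gene bli-2 followed at 76.8 (rank 392; II:5651577-5652046), with 46.3 and 31.4 in the replicates, and its partner bli-1 at 69.5 (rank 719; II:10710245-10710714), with 40.4 and 27.9. Struts are columns between layers of the adult cuticle, formed long after the embryonic stage sampled here. Of the furrow collagen genes, whose products form circumferential bands, dpy-8 had the highest signal, 70.1 (rank 686; X:5149610-5150079), with 33.8 in replicate 1 and 37.1 in replicate 2.

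The other furrow genes were lower and rested on weaker replicate values. The region of dpy-7 had 48.5 (rank 3637; 30.3 in replicate 1 and 15.3 in replicate 2), that of dpy-3 had 40.4 (20.02 and 25.01) and that of dpy-2 had 34.7 (18.7 and 14.8). The region of dpy-10, widely used as a co-conversion marker in genome editing, had 40.8 and was matched in replicate 1 (31.5) but not in replicate 2. No pooled region was assigned to dpy-9, and of the replicate lists that of replicate 1 had one, at 24.5. The gene is wholly unique in sequence. Its GC content is 42.5%, where the median was 51.4% over the 17 collagen genes without a pooled region and 48.8% over the 151 with one. Outside the furrow group, the body shape gene dpy-13 had 52.2 (37.1 in replicate 1 and 25.6 in replicate 2), and sqt-3, an essential collagen of the embryonic cuticle, had 49.8 (24.1 and 22.6). Its partner dpy-17 had 26.9, with a matching region in replicate 1 alone (15.1). The replicate 2 list had a region at dpy-17 with 19.7, which did not overlap the pooled one. The median over the 11 was 49.8, against 62.7 over the 140 col- genes with a region, whose quartiles were 47.7 and 77.2.

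The edge of the IDR list fell inside a continuous series of collagen signals. Just inside were col-72 (79.1, rank 328), col-2 (78.9, rank 336), col-60 (78.9, rank 337) and col-177 (78.9, rank 338). Just outside were col-171 (78.2, rank 354), rol-6 (78.1), col-35 (76.9, rank 390) and bli-2 (76.8). The replicate values of the genes outside, 38.6 to 46.3 in replicate 1 and 31.4 to 43.0 in replicate 2, overlapped those of the genes inside. Of genes set apart for other reasons, col-99, a transmembrane collagen gene and the longest of the set at 9946 bp, had 8 regions, the strongest at 70.4 (44.3 in replicate 1 and 29.99 in replicate 2). The adult-stage collagen gene col-19 had 65.4 (47.1 and 33.7). The region of col-12 had 21.3, near the bottom of the pooled list at rank 29936, with no match in either replicate, and col-10 had none. Only 28.9% of the 36-base words of col-12 and 27.5% of those of col-10 occur once in the genome.

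Within the genes the summits lay in coding sequence, well downstream of the start. Of the 33 collagen IDR peaks, 32 had the summit in coding sequence (97%, 95% interval 84.2 to 99.9), against 108 of the 309 other IDR peaks (35.0%, 95% interval 29.6 to 40.6). Of all collagen regions 84.4% lay in coding sequence, against 38.7% of all pooled regions, where coding sequence of any gene was counted. Collagen regions lay by rule in a gene body or up to 1000 bp upstream, while the regions beside them could lie anywhere. Such windows of protein-coding genes held 294 of the 342 IDR peaks and 24305 of the 30000 pooled regions. By gene, 33 of the 168 collagen genes had an IDR summit in the gene body (19.6%), against 1.25% of all genes. In the 1000 bp upstream it was 1 collagen gene (0.595%, 95% interval 0.0151 to 3.27), against 81 of all genes (0.406%). That gene was col-72, whose peak (II:3524631-3525100) had its summit 669 bp upstream, with 47.6 in replicate 1 and 26.1 in replicate 2. Only 48.8% of the 36-base words in the window of col-72 were unique. The peak shared by col-46 and col-47 lay in the 5′ UTR of col-46 and in coding sequence of col-47, so it is a coding peak by the second gene.

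Cut into 3 equal parts from start to end, 149 genes with a region in the body had their strongest summit in the first part in 11 cases, in the middle part in 87 and in the last part in 51. The median position was 60.6% of the way along the gene, with quartiles of 52.3% and 70.1%. The Gly-X-Y tracts, taken as runs of at least 4 triplets in the longest annotated coding sequence, made up 47.1% of the coding bases. They were found in 167 of the 168 genes, the exception being col-17, whose annotated coding sequence had none. Of 227 summits in the coding sequence of the collagen gene itself, counted by gene, 167 lay in a tract (73.6%, 95% interval 67.3 to 79.2). Of the 32 IDR summits in coding sequence it was 28 (87.5%, 95% interval 71.0 to 96.5), and those outside a tract were in col-163, col-80, col-110 and col-2. The tracts had a median GC content of 60.9% (50% to 69.3%), against 48.8% for the remaining coding sequence of the same genes.

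**Figure D3:**
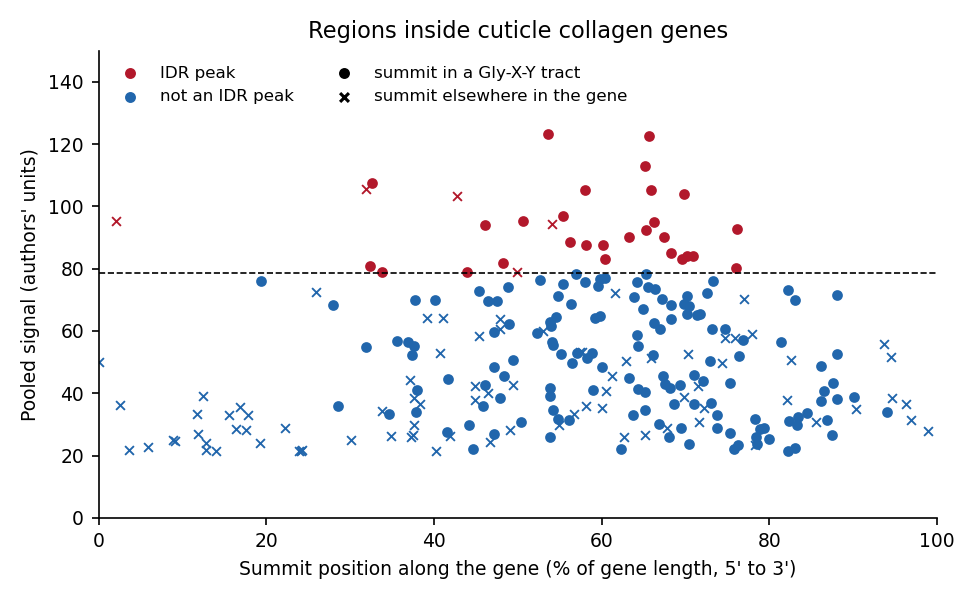
Summit position along the gene (% of gene length from 5′ to 3′, horizontal axis) against pooled signal (authors' units, vertical axis) for regions inside collagen genes; red marks are IDR peaks, blue marks other regions, circles summits in a Gly-X-Y tract and crosses summits elsewhere, and the dashed line is the weakest IDR peak at 78.7. Most IDR peaks lie in the middle and last of 3 equal parts of the gene, mostly as circles; those in the first part are col-163, col-37 and col-97 at 31.9% to 32.6% of the gene length and col-46, in the 5′ UTR, at 2.04%.

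GC content moved with the signal over regions inside and outside the collagen genes, but not over the IDR peaks as a whole. Within 100 bp of the summit the median GC content was 61.2% at collagen IDR peaks (46.3 to 70.6), 56.2% at all collagen regions, 54.7% at coding IDR peaks of other genes, 44.8% at other coding regions and 43.3% at all pooled regions. Across regions, Spearman's rho of GC content and pooled signal was 0.36 over the 275 collagen regions and 0.38 over 11380 coding regions of other genes. It was 0.21 over the strongest region of each of 151 collagen genes. Within the IDR list rho was 0.34 over the 33 collagen peaks, 0.041 over the 108 coding peaks of other genes and -0.093 over all 342. Regions share their libraries and often overlap, so these are descriptions. The high GC content lay at the first and second codon positions. At collagen IDR peaks, position 1 was G or C in 82.0% of codons, position 2 in 75.1% and position 3 in 24.3%, against 62.7%, 52.0% and 52.3% at coding IDR peaks of other genes.

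Set beside coding regions of like GC content, the collagen regions stood apart in some bands and not in others. The other regions include some in collagen genes outside the 168, among them the IDR peaks of lon-3 (60.2% GC) and let-2 (55.7% GC). Of the 232 coding regions in collagen windows 13.8% were IDR peaks, against 0.949% of the 11380 others and 1.21% of all coding regions. With a GC content of at least 55%, 26 of 160 collagen regions were IDR peaks (16.3%, 95% interval 10.9 to 22.9), against 51 of 703 other coding regions (7.25%, 95% interval 5.45 to 9.43). The median signals there were 53.3 for collagen regions and 46.7 for the others, but from 65% GC they were 52.7 for collagen regions and 68.1 for the others, and the collagen regions lay more in the higher bands. Between 50% and 55% it was 6 of 45 collagen regions (13.3%, 95% interval 5.05 to 26.8), against 41 of 1829 others (2.24%, 95% interval 1.61 to 3.03). From 55% to 60% the shares were 5.45% (3 of 55) in collagen genes and 6.06% (35 of 578) elsewhere, and from 65% they were 14.3% (3 of 21) and 13.3% (2 of 15). Between 60% and 65% the collagen share was 23.8% (20 of 84, 95% interval 15.2 to 34.3), against 12.7% (14 of 110, 95% interval 7.14 to 20.4). Between 45% and 50% it was 0 of 16 collagen regions (95% interval up to 20.6%) and 12 of 3034 others, and under 45% it was 0 of 11 collagen regions (up to 28.5%) and 4 of 5814 others. The 95% intervals of the 2 groups overlapped in each of these bands but that from 50% to 55%, and did not overlap over all regions of at least 55%. What GC content contributes to the signal of these libraries was not tested.

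**Figure D4:**
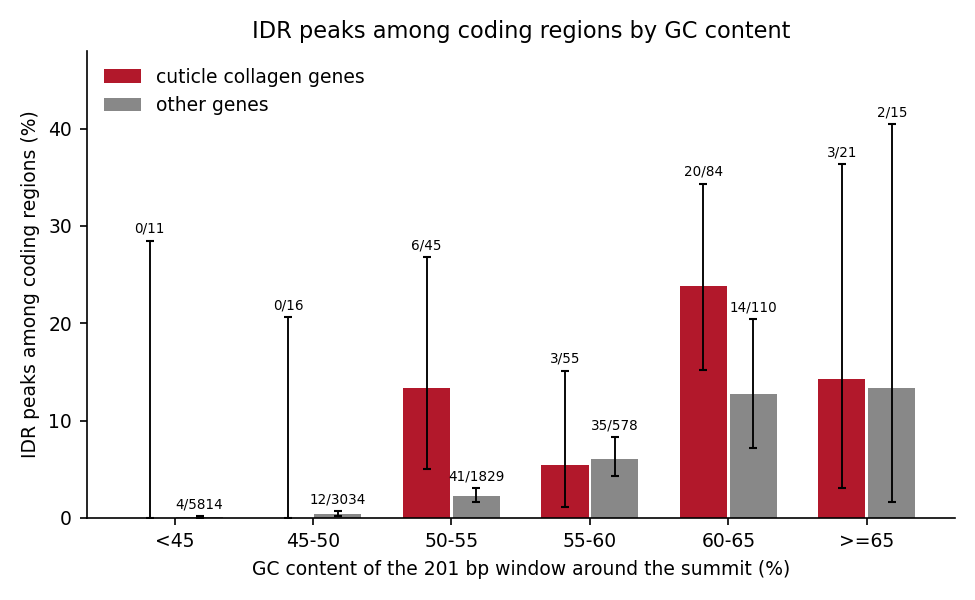
Share of coding regions that were IDR peaks (%, vertical axis) by GC content within 100 bp of the summit (%, horizontal axis). Collagen genes of the set are red and other genes, some of them further collagen genes, are grey. Lines are exact 95% intervals that count regions as if independent, and labels give IDR peaks over regions. Shares in other genes are higher in each GC-richer band, those in collagen genes go up and down between bands from 50%, and the intervals of the groups are apart only from 50% to 55%, with 13.3% in collagen genes and 2.24% in other genes.

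TGATAA was less frequent in collagen windows than in all pooled windows. Upstream, the intervals at collagen genes held the share of all genes for some GATA-type hexamers and not for others. TGATAA, searched on both strands within 100 bp of the summit, was in 9 of the 275 collagen windows (3.27%) and in 0 of the 33 IDR windows. Of the 232 collagen windows with the summit in coding sequence, at any GC content, 1.72% held it. It was in 2.70% of the 703 GC-rich coding windows of other genes, 5.56% of the 108 coding IDR windows of other genes and 12.5% of all pooled windows. With its variants AGATAA as well as TGATAG and further AGATAG, at least 1 of the 4 hexamers was in 14.5% of collagen windows and in 1 of the 33 IDR windows. In the 232 coding collagen windows the share was 10.8%. It was 9.82% in the GC-rich coding windows of other genes, 29.3% in all windows and 17.5% in all IDR windows. In the 1000 bp upstream, TGATAA was present at 123 collagen genes (73.2%, 95% interval 65.8 to 79.7), against 66.0% of all protein-coding genes. AGATAA was present at 60.1% of collagen genes (95% interval 52.3 to 67.6) and 50.1% of all genes. TGATAG was present at 38.7% (31.3 to 46.5) and 32.3%, and AGATAG at 33.3% (26.3 to 41.0) and 25%. The intervals for TGATAA and TGATAG held the share of all genes, and those for AGATAA and AGATAG lay above it. A match is a run of letters and not a measured site.

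Repeated sequence went with missing regions. Uniqueness was taken as the share of 36-base words of a gene that occur once in the genome on both strands. Of the 17 collagen genes with no pooled region, 14 were under 50% unique, with a median over the 17 of 23.6% (1.04 to 100), against a median of 100% (16.2 to 100) over the 151 with one. Of all 21 collagen genes under 50% unique, 14 had no region and none had an IDR peak. Of the 117 at least 95% unique, 2 had no region and 30 had an IDR peak. Among those under 50% unique and without a pooled region were col-92, col-93, col-126 and col-127, and they and col-17 and col-110 were named after their values were seen. How reads that map to several places were treated is not given in the sources used here, so a missing region says nothing about binding at such a gene. The genes without a region in any of the 3 lists numbered 12.

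**Figure D5:**
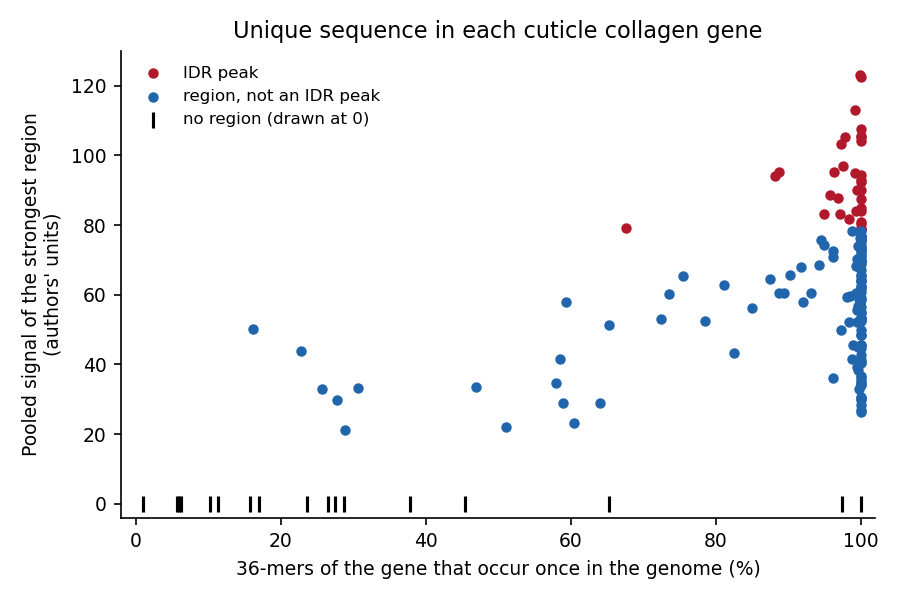
Share of the 36-base words of each collagen gene that occur once in the genome (%, horizontal axis) against the pooled signal of its strongest region (authors' units, vertical axis); red points are IDR peaks, blue points other regions, and black ticks at 0 the 17 genes without a region. Ticks gather under 50% on the horizontal axis, and the IDR peak of lowest uniqueness stands at 67.6%.

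Of the unique genes without a pooled region, col-137 had strong regions in both replicate lists. In col-137 the replicate 1 list had a coding region at IV:16601552-16601995 with a signal of 56.5, rank 38 and a q-value of 0.00164. The replicate 2 list had one at IV:16601687-16602162 with 51.7, rank 141 and a q-value of 0.0132. Both values lie above the median of the collagen IDR peaks in their list, and no region of the pooled list overlapped either. Among the 342 strongest regions of each replicate, 4 of replicate 1 and 7 of replicate 2 overlapped no pooled region, and at 2 places in the genome this was so in both. The count of 34 collagen genes with an IDR peak therefore leaves out a gene on which both replicates placed a strong region. It was named after its values were seen, and the cause of its absence from the pooled list was not tested.

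Beyond the 168 genes, lists of related genes held 3 further IDR peaks, of which lon-3 and let-2 are collagen genes and blmp-1 is not. Of 9 further cuticle collagen genes listed, 8 were found in the annotation, all 8 had a pooled region with the strongest summit in coding sequence, and 1 had an IDR peak. That was lon-3, a body length collagen gene, at 84.2 (rank 213), with 36.2 in replicate 1 and 46.5 in replicate 2. The others, rol-8, bli-6, dpy-4, sqt-1, dpy-14, dpy-5 and sqt-2, ran from 72.9 down to 49.9. Of 3 basement membrane and related collagen genes, let-2, a type IV collagen chain, had an IDR peak in coding sequence at 95.6 (rank 97; 47.1 and 50 in the replicates), while cle-1 had 65.3 and emb-9 had 56.8. Of 16 genes for enzymes and factors that hydroxylate, fold, cleave or cross-link collagen, 12 had a region and none had an IDR peak. The highest of those was phy-3, a prolyl hydroxylase gene, at 62.3 (rank 1231). Of 7 regulators of the epidermis and of moulting, all had a region and blmp-1, a zinc finger transcription factor gene, had an IDR peak in coding sequence at 79.4 (rank 317; 34.9 and 44.7). The share of all protein-coding genes with an IDR peak, 1.65%, is the background for these short lists, from which nothing can be read on their own.

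Regions in the same gene were often neighbours rather than separate observations. A second pooled summit lay 190 to 240 bp away for 130 of the 275 collagen regions (47.3%) and for 23 of the 33 collagen IDR peaks (69.7%), against 19.2% of all pooled regions and 56.1% of all IDR peaks. Regions of 1 gene are therefore not independent of each other, and shares by region count some genes more than once.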

How the data were processed

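Each of the 2 samples is an anti-GFP ChIP-seq library of 1 group, and groups were taken from the labels. Per the notes deposited with the samples, regions were called against a control file. Aligner, caller, software versions, IDR threshold and any filter on reads were not given in the sources used here. Lists are in narrowPeak layout on ce11. The signal column is the deposited value of the authors' peak caller, on a scale that is not stated. The q-value was taken from the deposited −log10 q-value column. Signals were not rescaled between lists, so an SD over the 2 replicates can include a difference in scale. Depth is unknown.

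Genes came from Ensembl release 115 (WBcel235), and every region ended inside its reference chromosome. A replicate region matched a pooled region by at least 1 bp of overlap, taking the strongest. GC content, codons and hexamers were read within 100 bp of the summit. Uniqueness used 36-mers on both strands, and codons and tracts used the longest coding sequence. Python 3.11.15, numpy 2.4.6, pandas 2.3.3, scipy 1.17.1 and matplotlib 3.10.9 were used, and the computations were tested on simulated data. With 1 group no test between conditions was possible: counts are descriptions, with exact Clopper-Pearson 95% intervals for counting only.

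The members and lists were chosen with earlier results of these data known. The named genes are the 12 dpy, rol, sqt and bli genes, the 12 of highest signal in the gene body, genes with an upstream IDR peak, 4 on each side of the edge of the IDR list, col-99, col-19, col-10 and col-12, and pathway genes with an IDR peak. Alternatives changed the window, assignment, gene list, peak list, uniqueness and replicates. The ce10 lists were not used. The sequence of 1 further summit window is not reported here.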

Additional observations from a re-analysis of the deposited data

How the results depend on the processing

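The number of collagen genes with an IDR peak, 34 as reported, was 30 to 37 when the upstream window, the assignment, the gene list or the uniqueness filter was changed, and 29 to 35 with the strongest regions of 1 replicate alone. It was 76 with pooled regions of q-value at most 0.05 and 22 with the stronger 50% of the IDR list, since these lists are longer and shorter by construction. Among all protein-coding genes, 330 had an IDR peak as reported, 249 in the gene body only, 293 with 500 bp upstream and 393 with 2000 bp upstream. The matching collagen counts were 34, 33, 33 and 37. The all-gene share was 5.67% for the q-value, and 1.73% and 1.72% for replicates 1 and 2. No all-gene share is given for the other changes. The share of collagen regions that were called, 12% as reported, was 30.2% with q-value at most 0.05 and 7.64% with the stronger 50% of the IDR list. With 1 replicate alone it was 10.8% to 12.8%. Over all pooled regions 1.14% were IDR peaks. No such share is given for the other lists, so these collagen shares cannot be set against a background. The share of IDR summits in coding sequence, 97% as reported, was 100% in the gene body only, with 500 bp upstream, in windows at least 95% unique and in the stronger 50% of the IDR list, and 94.3% to 96.6% with 1 replicate alone.

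The median signal of collagen regions, 45.5 as reported, was 49.8 in the gene body only, 48.3 with 500 bp upstream, 42.5 with 2000 bp upstream, 48.7 by any overlap with the gene body, 48.5 in windows at least 95% unique and 62.3 over the strongest region of each gene. With 1 replicate alone it was 23.9 to 26.7, in lists whose scale differs. The median GC content of IDR windows, 61.2% as reported, was 58.7% over the whole region and 60.2% to 61.7% with 1 replicate alone. The 13 peaks shared with the strongest regions of both replicates became 23 with the 1000 strongest of each list. The values compared here are counts, shares and medians without a sign, so none could reverse, and the absence of a reversal shows nothing. No paired analysis was possible because there was a single group. The lists give no depth, so weak regions cannot be told from thinly covered ones.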
